A study of Mus musculus with 3 samples.

Results

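Antioxidant enzyme genes were described in mouse splenocytes by single-cell RNA sequencing. The set held 10 genes, Prdx1, Prdx2, Prdx5, Prdx6, Gpx1, Gpx4, Sod1, Sod2, Txn1 and Cat, taken by gene name from the 32285 genes of the feature tables, and each name matched 1 row. The study asked how isolevuglandins, reactive products of lipid oxidation, act on immune cells in lupus and in hypertension. 3 libraries were analysed, and each pooled 2 conditions with 3 mice per condition. Male sham and female C57BL/6 mice made up the C57BL/6 control library. Mice of the C57BL/6 Ang II library were given angiotensin II, alone or with the isolevuglandin scavenger 2-hydroxybenzylamine (2-HOBA), and the series design names these mice as male. Minipumps were implanted at 10 weeks of age for 2 weeks in these and in the sham mice. The B6.SLE123 library held mice of a congenic lupus-prone strain, without or with 2-HOBA, which was begun at 7 weeks of age and given for 6 weeks. All mice were labelled as 12 to 14 weeks old, and all spleens had been depleted of T cells with CD3 beads.

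Superoxide dismutases turn superoxide into hydrogen peroxide, with Sod1 mainly in the cytosol and Sod2 in mitochondria. Catalase, peroxiredoxins and glutathione peroxidases then reduce peroxides, the peroxiredoxins mostly with electrons from thioredoxin and the glutathione peroxidases with glutathione. In the spleen these enzymes are known to guard lymphocytes, erythroid cells and oxidant-producing phagocytes, and the transcription factor NRF2 is a known inducer of several of them.

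Each library was 1 sample, so there was no replicate check and no test between conditions. Intervals in brackets cover counting error alone at the 95% level. Cells carried 6 antibody hashtags per library, but the labels did not tie a hashtag to a condition. The hashtag populations were therefore left unassigned and are given by their lowest, median and highest value, and no effect of 2-HOBA could be read. Strain, sex, treatment and library could not be told apart where they differed between libraries. Xist, the transcript of the inactive X chromosome, ranged from 0.923 to 559 counts per 1000000 UMIs (CPM) over the control populations of B cell-like cells, stood at 0 in every Ang II population, and ranged from 404 to 500 CPM in B6.SLE123. Levels are CPM of the unique molecular identifiers (UMIs) summed over a cell class, with all gene UMIs of that class as the total. The libraries held 44146350 to 63516694 gene UMIs, and 14017 to 16702 cells were kept in each. The libraries shared 415 to 496 barcodes in pairs.

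Cells were classed by marker genes, a class being given to a cell with UMIs for at least 2 of its 6 gate markers and for fewer markers of every other class. B cell-like cells made up 85.7% of the control, 83.8% of the Ang II and 79.2% of the B6.SLE123 cells, and between 1.75% and 2.03% of them stood at the minimum of 2 markers. Pax5, Ebf1 and Cd22, which the gate did not use, were each highest or second highest in this class in every library. Of their 3 check markers, classical monocyte-like cells met this for 2 in Ang II and for 1 in B6.SLE123, cDC1-like cells for 2 in the control, red pulp macrophage-like cells for 2 in both libraries that had enough, and migratory DC-like cells for 1 or 2, so these names are weaker. A gate on C1q genes and Fcgr4 met it for 1 and was given no cell type name.

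The enzymes were spread over the spleen in different patterns. Prdx5, a peroxiredoxin of mitochondria, peroxisomes and cytosol, was highest in immature neutrophil-like cells, at 2779 CPM in the control, 2264 in Ang II and 2992 in B6.SLE123. It stood between 126 and 143 CPM in B cell-like cells. Gpx1, the main cytosolic glutathione peroxidase, was highest in nonclassical monocyte-like cells, with 6673, 6012 and 7655 CPM in the same order, and lowest in NK cell-like cells among the classes measured in all 3 libraries, with 215, 166 and 270 CPM. Txn1, the cytosolic thioredoxin, was highest in mature neutrophil-like cells in each library. Prdx1, Prdx2 and Cat went the other way. In mature neutrophil-like cells Prdx1 stood at 26.0, 19.6 and 49.8 CPM, against 287, 266 and 442 CPM in B cell-like cells. Cat had 2 UMIs in 512 mature neutrophil-like cells of the control and 0 in 351 cells of B6.SLE123.

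**Figure D1:**
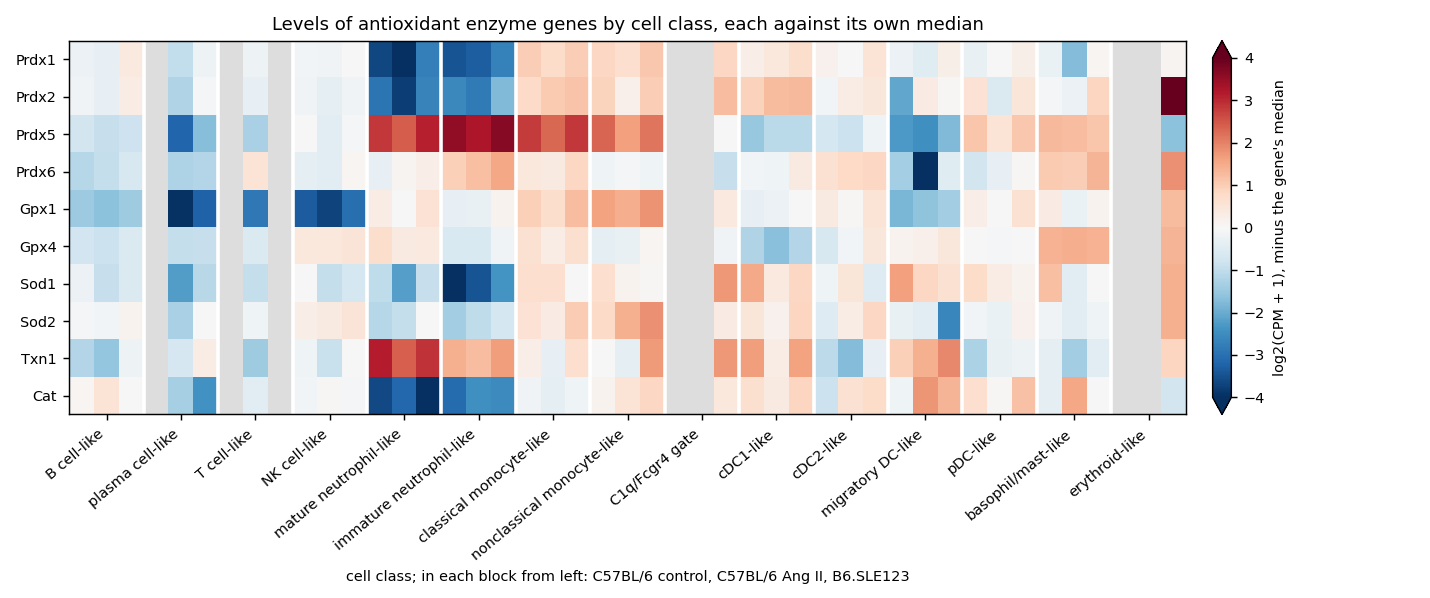
Levels of the 10 genes in cell classes with at least 20 cells in a library, with red pulp macrophage-like cells left out. Color gives log2(CPM + 1) minus the gene's own median over the classes and libraries shown, from blue (lower) to red (higher). Prdx5 and Txn1 are red in both neutrophil-like classes, where Prdx1, Prdx2 and Cat are blue, and gray marks a class with too few cells in a library.

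In B cell-like cells 2 of the 10 genes, Prdx1 and Txn1, were at or past 1.5-fold higher in B6.SLE123 than in the control library, and none was lower by that much. Of the 11479 genes with at least 50 UMIs over both libraries, 9.99% were higher and 7% lower by this rule. The median log2 ratio was 0.19 over the 10 genes and -0.05 over all genes tested. By the hashtag populations, all 6 of B6.SLE123 lay above all 6 of the control for 5 genes, Prdx1, Prdx2, Prdx6, Gpx4 and Txn1, where 9.6% of all genes did so. They lay below for 1 gene, Sod1, where 10.8% of all genes did so. In the Ang II library no gene of the set was 1.5-fold higher, against 3.91% of 11421 genes, and 1 was lower, Sod1, against 2.68%. Its populations lay above those of the control for 1 gene, Cat, against 7.81% of genes, and below for 1, Sod1, against 4.96%. The median log2 ratio of the set was -0.15 and that of all genes 0.05. Both contrasts used the same control library. Since that library held both sexes, the range of its populations spans them.

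**Figure D2:**
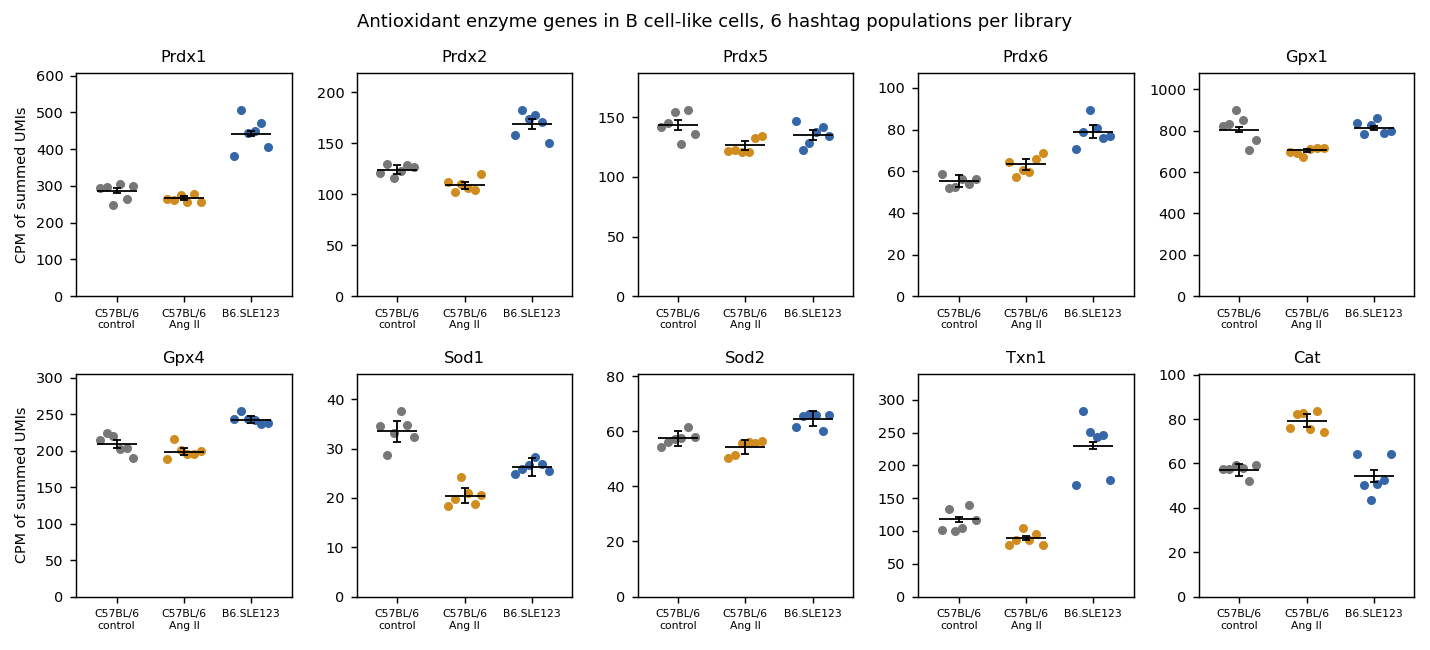
CPM of each gene in B cell-like cells, with 1 point for each of the 6 hashtag populations of a library, from C0301 on the left to C0306 on the right, and a black bar with its exact Poisson interval for the library as a whole. Prdx1, Prdx2, Prdx6, Gpx4 and Txn1 lie higher in every B6.SLE123 population than in any control population, and Sod1 lies lower in every Ang II and B6.SLE123 population.

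Prdx1 is a cytosolic peroxiredoxin that reduces hydrogen peroxide and is itself reduced by thioredoxin. The gene (ENSMUSG00000028691) lies on chr4:116685544-116700822, plus strand, in mm10. Its populations in B cell-like cells ranged from 249 to 306 CPM in the control (median 297), from 257 to 277 in Ang II (median 263) and from 382 to 505 in B6.SLE123 (median 447). The lowest B6.SLE123 population thus lay above the highest of both other libraries. The summed level was 442 CPM in B6.SLE123 and 287 CPM in the control, a log2 ratio of 0.62 (0.58 to 0.66). Without B6.SLE123 hashtag C0302, the population with the highest Prdx1, the ratio was 0.58, just under 1.5-fold.

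Prdx2, the peroxiredoxin that is abundant in red blood cells, showed a smaller difference. Its gene (ENSMUSG00000005161) lies on chr8:84969587-84974834, plus strand. Populations ranged from 116 to 129 CPM in the control, from 103 to 120 in Ang II and from 150 to 182 in B6.SLE123. The log2 ratio to the control was 0.44 (0.38 to 0.50) in B6.SLE123 and -0.19 (-0.26 to -0.12) in Ang II. Haemoglobin RNA, which erythroid cells shed into the suspension, was also uneven among these populations, at 8.25 to 119 CPM in the control, 12.2 to 307 in Ang II and 20.9 to 307 in B6.SLE123, and its part in the Prdx2 values was not tested.

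Prdx6 reduces phospholipid hydroperoxides as well as hydrogen peroxide, and its gene (ENSMUSG00000026701) lies on chr1:161240112-161251219, minus strand. It ranged from 51.9 to 58.8 CPM in the control, from 57.4 to 68.9 in Ang II and from 70.6 to 89.2 in B6.SLE123. It was the only peroxiredoxin of the 4 with a log2 ratio above 0 in both contrasts, 0.51 (0.42 to 0.61) in B6.SLE123 and 0.20 (0.10 to 0.29) in Ang II. Prdx5 (ENSMUSG00000024953, chr19:6906697-6910106, minus strand) went slightly the other way. Its ratios were -0.09 (-0.15 to -0.03) in B6.SLE123 and -0.18 (-0.24 to -0.12) in Ang II, and its populations overlapped, with 127 to 156 CPM in the control, 121 to 135 in Ang II and 123 to 147 in B6.SLE123.

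Txn1 was the gene of the set with the highest B6.SLE123 ratio to the control among B cell-like cells. It encodes the thioredoxin that passes electrons to peroxiredoxins, and its gene (ENSMUSG00000028367) lies on chr4:57943373-57956411, minus strand. Populations ranged from 101 to 140 CPM in the control (median 110.5), from 79.1 to 105 in Ang II (median 86.3) and from 171 to 283 in B6.SLE123 (median 245). The B6.SLE123 values fell in 2 sets, with C0301 at 171 and C0306 at 177 CPM and the other 4 between 243 and 283 CPM. The Ang II populations overlapped the control at the upper end. Summed levels were 230 CPM in B6.SLE123, 118 in the control and 89.0 in Ang II, which gave log2 ratios of 0.97 (0.91 to 1.03) and -0.40 (-0.47 to -0.33).

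Cycling markers were also uneven among these populations. The summed level of 6 cycling markers, Mki67, Top2a, Birc5, Cdk1, Ccna2 and Cenpf, was 36.2 to 135 CPM over the control populations, 19.9 to 46.8 over those of Ang II and 177 to 422 over those of B6.SLE123. C0301 and C0306, the B6.SLE123 populations with the lowest Txn1, also had the lowest cycling markers, 177 and 204 CPM. The order differed in the control, where C0305 had the highest Txn1, 140 CPM, at 63.2 CPM of cycling markers. Control C0302 had the most cycling markers, 135 CPM, with Txn1 at 133 CPM. B cell-like cells with UMIs for at least 2 of the 6 markers numbered 94 in the control, 68 in Ang II and 572 in B6.SLE123. In these cells Txn1 stood at 659, 564 and 826 CPM and Prdx1 at 706, 625 and 968 CPM, well above the levels in the remaining B cell-like cells of the same library.

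**Figure D3:**
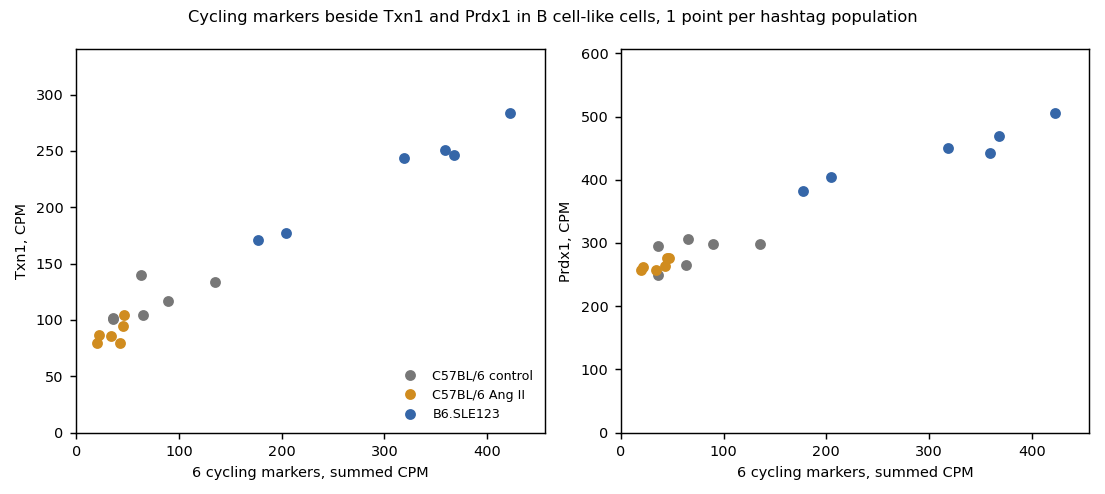
Txn1 (left) and Prdx1 (right) in CPM against the summed CPM of 6 cycling markers in B cell-like cells, with 1 point per hashtag population. The 6 B6.SLE123 points lie above 170 CPM of cycling markers and above every other point for both genes, and the populations share their library's preparation and depth.

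With cells of the cycling gate left out, none of the 10 genes was 1.5-fold higher or lower in B6.SLE123, where 7.29% of 11276 genes were higher and 6.34% lower. All 10 ratios kept their sign. Those of the 5 genes higher in every population became smaller, and that of Sod1 went from -0.35 to -0.41. Txn1 was then measured at 152 CPM and 105 CPM in the control (log2 ratio 0.54, 0.47 to 0.61), and Prdx1 at 374 against 278 CPM, a ratio of 0.43 (0.39 to 0.47). All 6 B6.SLE123 populations lay above all 6 control populations for Txn1 (136 to 177 against 92.5 to 132 CPM), Prdx1 (350 to 402 against 246 to 300 CPM), Prdx2, Prdx6 and Gpx4. For Sod1 this held for 5 of the 6 in the lower direction. With cycling cells kept, 9.6% of all genes had all populations above the control and 10.8% below. The shares without cycling cells are not given here, so the count is not read against them. Cells with a UMI for a single cycling marker stayed in this comparison. The limits on cells also bore on the call. The paper words its limits of 200 and 3500 as RNA counts, and they were read here as genes detected. Read as UMIs, they gave a ratio over all B cell-like cells of 0.37 for Txn1 and 0.35 for Prdx1, both under 1.5-fold.

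**Figure D4:**
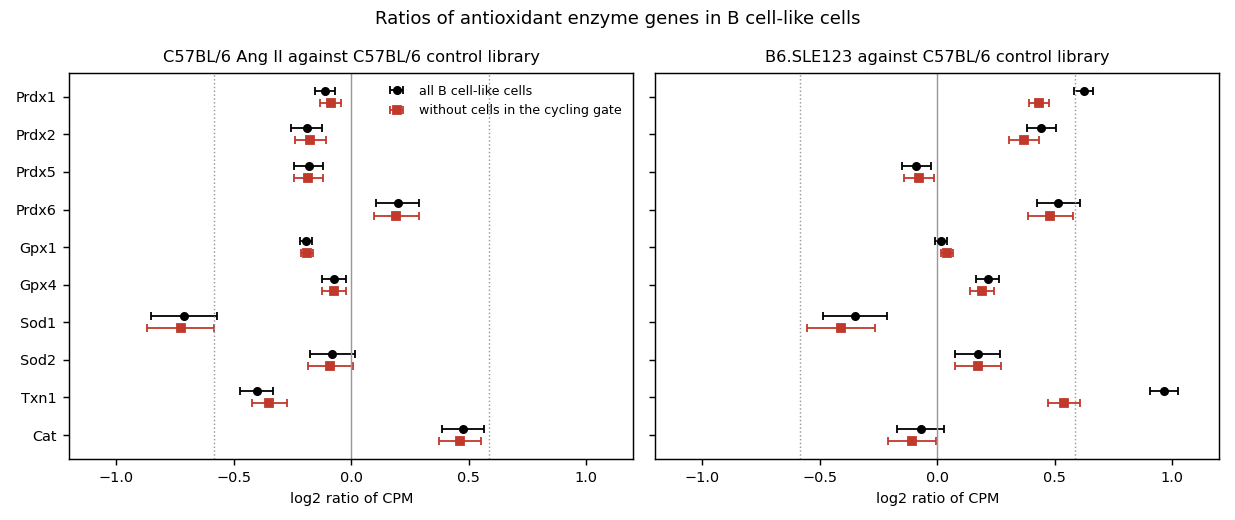
Log2 ratio of CPM to the control library for each gene, in all B cell-like cells (black circles) and without cells of the cycling gate (red squares), with exact conditional intervals, and dotted lines at 1.5-fold. Txn1 moves from 0.97 to 0.54 and Prdx1 from 0.62 to 0.43 in B6.SLE123, while Sod1 stays near -0.7 in Ang II.

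The 250 bases before the RefSeq start of Prdx1 and Txn1, which were higher together in B6.SLE123, and of Sod1, which was lower in both contrasts, are shown because NRF2 acts on such genes through the antioxidant response element. Capitals mark the core TGACNNNGC, searched on both strands in build GRCm38.p6.
Prdx1 (chr4:116685349-116685598, plus strand): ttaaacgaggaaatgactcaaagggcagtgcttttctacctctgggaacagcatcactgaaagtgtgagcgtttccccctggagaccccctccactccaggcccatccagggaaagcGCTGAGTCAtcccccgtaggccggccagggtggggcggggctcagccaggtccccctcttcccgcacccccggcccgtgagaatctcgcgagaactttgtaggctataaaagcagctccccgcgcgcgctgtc
Txn1 (chr4:57956412-57956661, minus strand): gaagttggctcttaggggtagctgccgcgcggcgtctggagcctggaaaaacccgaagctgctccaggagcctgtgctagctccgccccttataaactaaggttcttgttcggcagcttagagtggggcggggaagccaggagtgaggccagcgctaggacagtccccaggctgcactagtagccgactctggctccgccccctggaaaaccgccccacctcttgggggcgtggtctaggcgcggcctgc
Sod1 (chr16:90220512-90220761, plus strand): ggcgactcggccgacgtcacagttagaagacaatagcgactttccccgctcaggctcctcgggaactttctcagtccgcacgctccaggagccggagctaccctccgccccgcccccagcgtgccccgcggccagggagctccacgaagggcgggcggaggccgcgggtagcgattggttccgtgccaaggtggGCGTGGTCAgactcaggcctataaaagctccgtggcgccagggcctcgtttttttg
Prdx1 held 1 match, starting 133 bases before the start, and Sod1 held 1, starting 56 bases before it, both on the opposite strand. Txn1 held none in this window, nor did the listed promoters of Prdx2, Prdx5, Gpx1, Gpx4, Sod2 and Cat. Of 32851 RefSeq promoters of this length 10.2% held a match, so the letters occur in many promoters, and a match is no evidence of binding.

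The glutathione peroxidases differed little between libraries in B cell-like cells. Gpx1 (ENSMUSG00000063856, chr9:108338903-108340343, plus strand) ranged from 706 to 898 CPM over the control populations, from 674 to 718 in Ang II and from 786 to 861 in B6.SLE123, so that the groups overlapped. Its log2 ratio was 0.02 (-0.01 to 0.04) in B6.SLE123 and -0.19 (-0.22 to -0.17) in Ang II. Gpx4, the selenoenzyme that reduces lipid hydroperoxides within membranes, lies on chr10:80047166-80056439, plus strand (ENSMUSG00000075706). It ranged from 189 to 224 CPM in the control, from 189 to 216 in Ang II and from 236 to 255 in B6.SLE123. Its ratio in B6.SLE123 was 0.21 (0.17 to 0.26), although no population overlapped the control.

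Sod1 was the only gene of the set below the control in B cell-like cells in every population of both other libraries. Its gene (ENSMUSG00000022982) lies on chr16:90220754-90226329, plus strand. The populations ranged from 28.8 to 37.7 CPM in the control (median 33.9), from 18.5 to 24.3 in Ang II (median 20.1) and from 25.0 to 28.3 in B6.SLE123 (median 26.3). The highest Ang II population lay below the lowest control population, and the highest B6.SLE123 population, at 28.3, just below it. The log2 ratio was -0.71 (-0.85 to -0.57) in Ang II and -0.35 (-0.48 to -0.21) in B6.SLE123. These sums rest on 748 UMIs in Ang II, 844 in B6.SLE123 and 944 in the control. Among other classes with at least 50 UMIs over both libraries, the Sod1 ratio was below 0 in the 4 such classes of B6.SLE123, each past 1.5-fold, though the interval lay wholly below 0 only in classical monocyte-like cells (-0.69, -1.30 to -0.09). Of the 3 in Ang II only NK cell-like cells passed 1.5-fold, while nonclassical monocyte-like cells stood at -0.53 (-1.51 to 0.38) and classical monocyte-like cells at -0.02 (-0.60 to 0.55). In NK cell-like cells it stood at 39.3 CPM in the control, 20.03 in Ang II (log2 ratio -0.97, -1.78 to -0.20) and 23.9 in B6.SLE123 (-0.72, -1.52 to 0.04), on 22 to 43 UMIs.

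Sod2, the mitochondrial manganese superoxide dismutase (ENSMUSG00000006818, chr17:13006846-13040063, plus strand), ranged from 54.5 to 61.6 CPM in the control, from 50.2 to 56.6 in Ang II and from 60.1 to 66.4 in B6.SLE123. The ranges met at their edges. Its ratio in B6.SLE123 was 0.17 (0.08 to 0.27), and that in Ang II was -0.08 with an interval that reached 0 (-0.18 to 0.01).

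Cat, which breaks hydrogen peroxide down to water and oxygen, mainly in peroxisomes, was the gene of the set with the highest ratio in Ang II. It lies on chr2:103453849-103485160, minus strand (ENSMUSG00000027187). Populations of B cell-like cells ranged from 52.0 to 59.5 CPM in the control, from 74.4 to 83.8 in Ang II and from 43.5 to 64.4 in B6.SLE123. The Ang II populations lay above all those of the other libraries, and those of B6.SLE123 lay on both sides of the control range. The log2 ratio in Ang II was 0.47 (0.39 to 0.56), or 1.39-fold, and in B6.SLE123 it was -0.07 (-0.17 to 0.03). In cycling B cell-like cells Cat stood at 112 CPM in Ang II and 46.8 CPM in the control, on 56 and 30 UMIs. The level of neutrophil RNA (S100a8, S100a9, Ngp, Camp, Ltf and Lcn2) in B cell-like cells ranged from 66.2 to 243 CPM over the control populations and 238 to 350 CPM over those of Ang II. Mature neutrophil-like cells of the Ang II library held 5.23 CPM of Cat, on 4 UMIs. The part of neutrophil RNA in the Cat values of B cell-like cells was not tested.

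Position was also noted for the strain. Prdx1 and Txn1 lie on chromosome 4 and Prdx6 on chromosome 1, and B6.SLE123 is known to carry introgressed lupus intervals on these chromosomes. In B cell-like cells 11.5% of 679 genes tested on chromosome 4 and 10.9% of 663 on chromosome 1 were 1.5-fold higher in B6.SLE123, beside 9.99% of all genes. The borders of the intervals were not used here, and the part of position was not tested.

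In nonclassical monocyte-like cells, the patrolling Ly6C-low monocytes, 3 of the 10 genes were at or past 1.5-fold higher in B6.SLE123 (Txn1, Sod2 and Cat, against 8.75% of 3601 genes) and 1 was lower (Sod1, against 6.16%). Txn1 stood at 267 CPM in 220 control cells, 202 in 95 Ang II cells and 865 in 399 B6.SLE123 cells. Its log2 ratio was 1.70 (1.43 to 1.96), or 3.24-fold. The 5 control populations with at least 20 cells held 165, 294, 305, 314 and 216 CPM of Txn1. Those of B6.SLE123 held 221 in C0301, 698 in C0302, 1148 in C0303, 527 in C0304, 790 in C0305 and 487 in C0306. Thus 5 of the 6 lay above the control range and C0301 within it. C0303 gave 185 of the 399 cells, and without it the Txn1 ratio was 1.15. Sod2 was at 210 against 101 CPM (1.05, 0.60 to 1.52), and at 0.61 without C0303. Cat was at 95.2 against 59.6 CPM (0.68, 0.06 to 1.32) on 68 and 33 UMIs, and at 0.45 without control hashtag C0305. Sod1 was at 40.6 against 63.2 CPM (-0.64, -1.40 to 0.11).

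The level of neutrophil RNA was uneven in the same cells, with 30.9 to 778 CPM over the control populations and 88.4 to 2045 over those of B6.SLE123. Mature neutrophil-like cells of B6.SLE123 held 155841 CPM of this RNA and 1967 CPM of Txn1. The part of neutrophil RNA in the Txn1 values of nonclassical monocyte-like cells was not tested. Median UMIs per cell in this class were 2148 in the control and 1458 in B6.SLE123, and 17.3% and 21.8% of the cells stood at the minimum of 2 gate markers. With 1 more marker required the Txn1 ratio was 1.67.

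**Figure D5:**
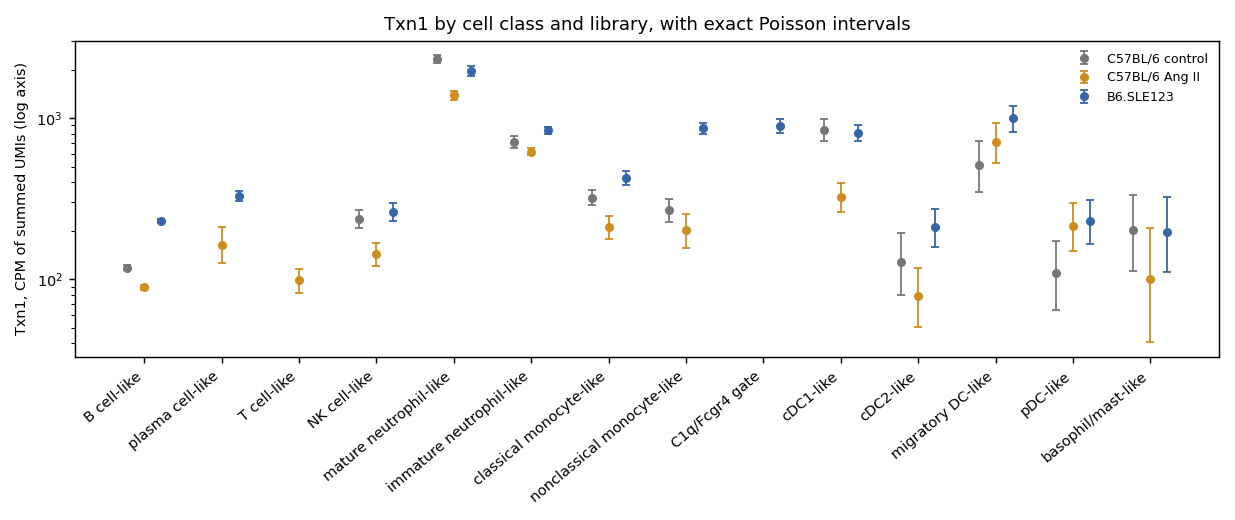
Txn1 in CPM (log axis) in cell classes with at least 20 cells in a library, with exact Poisson intervals. Red pulp macrophage-like and erythroid-like cells are left out. Mature neutrophil-like cells are highest in each library, and in nonclassical monocyte-like cells the B6.SLE123 point at 865 stands over the control at 267 and Ang II at 202.

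In Ang II the same gene was lower in several classes. Txn1 in mature neutrophil-like cells stood at 2335 CPM in the control, 1382 in Ang II and 1967 in B6.SLE123. The Ang II populations ranged from 1263 to 1504 CPM and the control populations from 1756 to 2974, with no overlap, and the log2 ratio was -0.76 (-0.87 to -0.64). In NK cell-like cells Txn1 was at 236 CPM in the control and 143 in Ang II, a ratio of -0.73 (-1.02 to -0.43). There too the Ang II populations, at 114 to 178 CPM, lay below those of the control, at 196 to 281. The share of all genes without overlap is not given for either class. In Ang II 6.98% of all genes were 1.5-fold lower in mature neutrophil-like cells and 3.01% in NK cell-like cells. This share was 5.47% in cDC1-like and 4.25% in classical monocyte-like cells. In cDC1-like cells, the cross-presenting dendritic cells, Txn1 was at 849 against 323 CPM (-1.39, -1.77 to -1.02) in 46 and 57 cells, and in classical monocyte-like cells at 321 against 210 CPM (-0.61, -0.90 to -0.33), or -0.45 without control hashtag C0305.

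Txn1 was not lower in every class of the Ang II library. In pDC-like cells, the interferon-producing plasmacytoid dendritic cells, it was at 213 CPM against 109 in the control (0.97, 0.11 to 1.87), on 35 and 18 UMIs. Over the 9 classes with enough UMIs the Ang II ratio was below 0 in 7 and above 0 in 2. Over 10 classes of B6.SLE123 it was above 0 in 8 and below 0 in 2, mature neutrophil-like cells (-0.25, -0.38 to -0.11) and cDC1-like cells (-0.07, -0.34 to 0.21). Txn1 was 1.5-fold higher in B6.SLE123 also in pDC-like cells (230 CPM, 1.07, 0.24 to 1.96), migratory DC-like cells (996 against 509 CPM, 0.97, 0.39 to 1.58) and cDC2-like cells (210 against 128 CPM, 0.72, with a lower bound of -0.02), on 18 to 114 UMIs per library. The ratio in migratory DC-like cells was 1.63 without control hashtag C0305 and 2.16 with the cell limits read as UMIs. Between classes, the share of all genes 1.5-fold higher in B6.SLE123 ran from 6.25% in NK cell-like to 19.6% in immature neutrophil-like cells.

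Prdx5 and Gpx1 had Ang II ratios below 0 in most classes, mostly by less than 1.5-fold. Prdx5 was at 1299 CPM against 1703 in mature neutrophil-like cells, at 1189 against 1671 in classical monocyte-like cells and at 754 against 1195 in nonclassical monocyte-like cells, the last with a log2 ratio of -0.66 (-0.88 to -0.45). Over the 10 classes with enough UMIs its Ang II ratio was below 0 in 9, with an interval wholly below 0 in 7. Gpx1 was below 0 in 8 of 11 classes, with the interval below 0 in all 8, and past 1.5-fold in basophil/mast-like cells alone (-0.59, -0.92 to -0.26). In immature neutrophil-like cells it was at 1778 against 1724 CPM (0.04, -0.05 to 0.14). In mature neutrophil-like cells its Ang II populations ranged from 1917 to 2449 CPM and those of the control from 2476 to 3144. The share of all genes without overlap is not given for this class, so these ranges are description alone. In B6.SLE123 the Gpx1 ratio was above 0 in 10 of 11 classes, with the interval above 0 in 8, and its highest value was 0.47 in immature neutrophil-like cells (2389 against 1724 CPM). Gpx4 was highest in B6.SLE123 cDC2-like cells relative to the control, at 494 against 233 CPM (1.09, 0.56 to 1.64), in 56 and 37 cells. Of the cDC2-like cells 54.1% in the control, 39.3% in B6.SLE123 and 25% in Ang II stood at the minimum of 2 gate markers.

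In immature neutrophil-like cells of B6.SLE123 4 of 8 measured genes were at or past 1.5-fold higher, where 19.6% of all genes were and the median log2 ratio of all genes was 0.21. Prdx6 was at 362 against 239 CPM (log2 ratio 0.60), and at 0.39 after scaling to the median of gene ratios. Without that scaling the ratio was 0.75 (0.07 to 1.49) for Prdx1 on 98 and 22 UMIs, and 0.84 (0.05 to 1.72) for Prdx2 on 76 and 16. For Sod2 it was 0.70 with an interval that spanned 0 (-0.10 to 1.59), on 69 and 16 UMIs. The scaled ratios of Prdx1, Prdx2 and Sod2 are not given here and would be lower. The control gave 114 of these cells and B6.SLE123 340.

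Further genes of the pathway gave few differences of that size in B cell-like cells. They were compared over all B cell-like cells alone, cycling cells included. Their values without cycling cells, or with the cell limits read as UMIs, are not given here. Of 8 further genes of the thioredoxin system 7 had at least 50 UMIs in B6.SLE123 and the control, and none was 1.5-fold higher or lower, beside 9.99% and 7% of all genes. Below that size, and chosen after their values were seen, are Prdx3, Txn2, Txnip, Nfe2l2, Nqo1, Srxn1, Sod3 and the genes given for their populations alone. Prdx3, the mitochondrial peroxiredoxin (0.35), and its reductant Txn2 (0.41) had all 6 B6.SLE123 populations above the control, beside 9.6% of all genes. So did Hmox2 and Sqstm1 of the NRF2 list and Msra and Ucp2 of the other redox genes, and no gene of these lists had all 6 below. Txnip, an inhibitor of thioredoxin, had a log2 ratio of -0.30 (-0.35 to -0.25). Of 16 genes of the glutathione system 14 were measured well enough and 4 were 1.5-fold higher. Gclm, the modifier subunit of the enzyme that starts glutathione synthesis, was at 47.8 against 30.9 CPM (0.63, 0.51 to 0.75). Glrx3, a glutaredoxin, was at 117 against 70.3 CPM (0.74), Gsto1, a glutathione transferase, at 10.6 against 6.39 CPM (0.73), and Gpx7, a peroxidase of the endoplasmic reticulum, at 4.17 against 1.92 CPM (1.12) on 134 and 54 UMIs. The populations of B6.SLE123 lay above the control for Gclm, Glrx3 and Gpx7 and overlapped it for Gsto1.

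The list headed NRF2 and its targets gave 1 of 7 measured genes 1.5-fold higher in B6.SLE123, beside 9.99% of all genes. That gene was Hmox1, heme oxygenase 1, at 3.15 against 1.10 CPM (1.52, 0.92 to 2.15), on 101 and 31 UMIs, and its hashtag populations overlapped between the libraries. The list is not a full one, since genes placed in other lists, such as Gclm, and the 10 genes of the set were counted elsewhere. The count is thus no measure of NRF2 targets as a whole. Nfe2l2, which encodes NRF2, stood at 42.6 against 44.1 CPM (-0.05, -0.16 to 0.06). Nqo1, a classical NRF2 target, had 0 UMIs in the control, 3 in Ang II and 1 in B6.SLE123, and Srxn1, which repairs overoxidised peroxiredoxins, had 2, 0 and 2. None of 9 other redox genes passed 1.5-fold, and Sod3, the extracellular superoxide dismutase, had no UMI in B cell-like cells. In Ang II, Gclm was lower, at 20.4 CPM (-0.60, -0.74 to -0.45), and was the only gene of these lists past 1.5-fold. By the Ang II populations, Txn2 of the thioredoxin system, Glrx3 of the glutathione system, Nfe2l2, Hmox2 and Sqstm1 of the NRF2 list and Sesn1 of the other redox genes lay above the control, beside 7.81% of all genes. Gclm, Glrx5, Gstp1 and Msrb1 lay below it, beside 4.96%.

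The profile over the 40 combinations of class and library with at least 20 cells set the genes apart. By Pearson's r of log2(CPM + 1) over 11222 genes, the nearest gene to Prdx1 was Nme2 (0.91), to Prdx2 Uqcrfs1 (0.88), to Prdx5 Hp (0.88), to Prdx6 Ube2s (0.86), to Sod1 Bax (0.86) and to Cat Ccdc90b (0.87). Gpx1 was nearest to Nfam1 (0.81), Sod2 to Exosc3 (0.77), Gpx4 to Eed (0.72) and Txn1 to Ppp1r2 (0.70). Within the set the highest r was 0.82, between Prdx1 and Prdx2, and the lowest -0.46, between Prdx5 and Cat. The points share libraries and differ in depth, so these values describe the 40 profiles alone.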

How the data were processed

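Splenocytes were labelled with hashtag antibodies and sequenced with 10x 5′ single-cell chemistry. The authors deposited UMI counts per gene and barcode for each library, made with Cell Ranger on mm10 per the submitters' processing notes, and these counts were used without further normalization by the authors. Barcodes with over 200 and under 3500 genes and under 15% mitochondrial UMIs were kept. The paper words the limits of 200 and 3500 as RNA counts, so genes detected is a reading made here. Barcodes positive for several hashtags (11.4% to 18.0%) were removed as multiplets, and no other doublet caller was run. Hashtag positivity was called from the deposited hashtag counts by a threshold per hashtag. Cells were gated by markers, as the report states, and 2.21% to 3.92% stayed ungated. Median UMIs per kept cell were 1759 in the control, 2724 in Ang II and 1888 in B6.SLE123.

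UMIs were summed per library, hashtag and class of at least 20 cells and divided by all gene UMIs of that class. Levels carry exact Poisson and ratios exact conditional binomial intervals, both of counting error only. Genes with a sum of 50 or more UMIs in the pair of libraries were compared, and called at 1.5-fold. Calculations used Python 3.11.15, numpy 2.4.6, pandas 2.3.3 and SciPy 1.17.1, and were tested on simulated data. Positions are from GENCODE M21 and promoters from RefSeq, where 9 of the 10 genes had an entry.

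The 10 genes were always named. Pathway genes were to be named at or past 1.5-fold with at least 50 UMIs, and for each gene the most alike genes among those with at least 200 UMIs. The genes, lists and rules were chosen with earlier results of these data known. Alternatives were another gate, other limits on cells, UMI minimums, folds and totals, all kept cells, cells outside the cycling gate and each hashtag left out. Those run for single classes, and the neutrophil RNA list left out of the totals, were added after seeing the data.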

Additional observations from a re-analysis of the deposited data

Results flagged for a closer look

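Sets of 6 hashtag populations were examined for each gene and library in B cell-like and NK cell-like cells, and in no other class. Of these 60 sets, 4 held a population that stood apart from the other 5 by Dixon's criterion at the 95% level. In like samples chance gives about 1 in 20 such sets, and these populations can differ by condition, so that rate need not hold here. Cat in B cell-like cells was lowest in control hashtag C0305, at 52.0 CPM. Cat in NK cell-like cells was lowest in Ang II hashtag C0301, at 40.4 CPM. Prdx6 in NK cell-like cells was highest in B6.SLE123 hashtag C0301, at 174 CPM, and Txn1 in NK cell-like cells was highest in B6.SLE123 hashtag C0303, at 427 CPM. No condition is assigned to these populations.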

How the results depend on the processing

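No paired analysis was possible because each group was 1 library and the contrasts came from no test. For B6.SLE123 in B cell-like cells, 2 genes past 1.5-fold became 0 with the cell limits read as UMIs, 0 without the cycling gate, 1 over all kept cells, 5 at a log2 limit of 0.32 and 0 at 2-fold, and 1 to 2 with a hashtag left out. Of all genes, 17.0% passed the fold in the main setting, 13.6% without the cycling gate and 19.7% over all kept cells. The 6 genes without overlap, beside 20.4% of all genes, became 3 with the limits read as UMIs and 3 over all kept cells. With a hashtag left out they were 6 to 7. For Ang II, 1 gene past the fold became 3 at a log2 limit of 0.32 and 0 at 2-fold, with 1 in each leave-out, and the 2 without overlap ranged from 2 to 3. In its main setting 6.59% of all genes passed the fold and 12.8% did not overlap. The share of all genes changes with the setting and is not given for the remaining ones, so those counts are description alone. Of 736 alternative values for 41 single ratios none changed sign where it was called and 31 moved past the interval. The B6.SLE123 ratio of Gpx1 in B cell-like cells ran from -0.03 to 0.06. The ratios that fell under 1.5-fold in the most alternatives were Sod2 in Ang II nonclassical monocyte-like cells, in 7 and down to 0.24, and Prdx6 in mature neutrophil-like cells of B6.SLE123, in 7 and down to 0.49. Among others, Txn1 in Ang II classical monocyte-like cells was -0.45 without control hashtag C0305, Sod1 in those of B6.SLE123 was -0.48 with several-hashtag barcodes kept, and Prdx6 in immature neutrophil-like cells was 0.39 after scaling to the median of gene ratios. The cause was not tested. Populations with several hashtags kept were not run. Classes under 100 cells and Sod1 and Cat outside B cells rest on few UMIs.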

Other observations

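Classes with under 20 control cells had no contrast with the control. Plasma cell-like cells, the antibody-secreting cells, numbered 273 in B6.SLE123 and 28 in Ang II. Txn1 in them stood at 328 CPM (306 to 351) in B6.SLE123 and 164 CPM (126 to 210) in Ang II, and Prdx1 at 289 and 169 CPM. Gpx1 was at 232 and 141 CPM, and Cat at 9.17 CPM on 23 UMIs in B6.SLE123. Red pulp macrophage-like cells, a class known to recycle iron from red blood cells and here with 2 of 3 check markers met, held 1229 CPM of Txn1 in 43 cells of B6.SLE123 (933 to 1588) and 620 CPM in 29 cells of Ang II (397 to 922).

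The 204 B6.SLE123 cells of the gate on C1q genes and Fcgr4 held 2837 CPM of Gpx1, 891 of Txn1 and 134 of Sod1. In 29 erythroid-like cells of B6.SLE123 Prdx2 stood at 2598 CPM (2353 to 2861) and Gpx1 at 5221 CPM. In 316 T cell-like cells of Ang II, left after depletion, Prdx6 was at 178 CPM and Txn1 at 98.3 CPM.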
